A study of Homo sapiens with 12 samples.

Results

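Transsulfuration, serine synthesis, the serine-linked folate steps, asparagine synthesis and the first step of proline synthesis are represented here by 10 enzyme genes, CBS, CTH, PHGDH, PSAT1, PSPH, SHMT1, SHMT2, MTHFD2, ASNS and ALDH18A1. They were chosen by gene symbol, and all 10 were found among the 23710 genes of the count tables. The RNA came from RCC4, an established line of human clear cell renal carcinoma, 72 h after transfection with 40 pmol of siRNA in RNAiMAX lipid. In experiment 1, 3 libraries of siMESH1-CDS were compared with 3 libraries of siNT, a non-targeting siRNA, on lanes 4 to 7 of a sequencer. In experiment 2, 3 libraries of siMESH1-7002 were compared with 3 separate siNT libraries, all on lane 2. MESH1 is the product of the gene HDDC3, a hydrolase related to bacterial SpoT that removes a phosphate from NADPH. The comparisons ask how depletion of MESH1 changed the transcripts of this part of amino acid metabolism.

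Transsulfuration carries sulfur from homocysteine to cysteine: CBS joins homocysteine with serine to form cystathionine, and CTH splits cystathionine to release cysteine, the limiting building block of glutathione. Serine is made from a glycolytic intermediate by PHGDH, PSAT1 and PSPH in turn, and SHMT1 and SHMT2 convert it to glycine while loading a carbon on folate, which MTHFD2 then oxidizes in mitochondria. ASNS makes asparagine from aspartate and glutamine. Several of these genes are textbook targets of ATF4, the transcription factor of the integrated stress response, which binds a composite promoter element with the core TGATGNAA.

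The siRNA target sequences are shown because the 2 siRNAs hit separate parts of the HDDC3 transcript, in a gene on the minus strand at chr15:90929964-90935196 (GRCh38). Capitals mark the bases that pair with guide positions 2 to 8, the seed. The siMESH1-CDS target lay in coding sequence and occurred in 9 of 10 annotated HDDC3 transcripts, and the siMESH1-7002 target lay in the 3' untranslated region and occurred in 6 of 10.
siMESH1-CDS: gggaaucacugACAUUGUg
siMESH1-7002: ctgaaggtctcctGCTAACTa

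A transcript with a seed match can also be lowered by an siRNA directly, so the longest coding transcript of each enzyme gene was searched. The siMESH1-CDS site ACATTGT was in the 3' untranslated region of 0 of the 10 enzyme genes, against 14.3% of 18525 genes. The siMESH1-7002 site GCTAACT was in 1 of 10, ASNS, against 5.51% of genes. In ASNS it covered bases 91 to 97 of a 3' untranslated region of 141 bases and is shown, in capitals, because ASNS fell with this siRNA. Whether the site had a part in that fall was not tested.
ASNS site: aactcagGCTAACTtgggtgt

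Promoters (250 bases before to 50 after the start site, RefSeq on GRCh38.p14) were on hand for 8 of the 10 genes, all but PSPH and SHMT2. The TGATGNAA core, searched on both strands, was in 1 of the 8, in ASNS with its first base at -68, against 3.62% of 35116 promoters. The E-box CACGTG, a palindrome bound by MYC and related factors, was in 1 of the 8, in ALDH18A1 at -136, against 7.26% of promoters. Both stretches are on the minus strand, at chr7:97872458-97872487 for ASNS and chr10:95656831-95656858 for ALDH18A1, with the motif in capitals. The ASNS stretch lies before the RefSeq start site used here but inside the longer GENCODE gene bounds given for ASNS further on. A match is a description of the letters and no evidence of binding.
ASNS: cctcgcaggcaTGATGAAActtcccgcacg
ALDH18A1: ggctggcccgcCACGTGgagcgctggct

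HDDC3, the targeted gene, was checked first. In CPM, the reads of a gene scaled to the depth of its library with TMM factors, it was 8.23, 6.46 and 7.75 with siNT and 0.158, 0 and 0.316 with siMESH1-CDS. In experiment 2 it was 13.9, 13.1 and 12.7 with siNT and 1.25, 1.18 and 1.72 with siMESH1-7002. Every siMESH1 library was below every siNT library, and the log2 change of HDDC3 was -5.56 with siMESH1-CDS (SE 0.82, adjusted p 0.00174) and -3.25 with siMESH1-7002 (SE 0.13, adjusted p 2.51e-12) in edgeR's quasi-likelihood test. After correction for GC content, described next, the first was -3.77 (adjusted p 0.000666).

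Libraries held 34063155 to 49134129 reads in genes in experiment 1 and 24787804 to 31651125 in experiment 2. Before TMM scaling, 1 CPM therefore rests on 24.8 to 49.1 reads, and the TMM factors, 0.848 to 1.111, shift this for each library. The siMESH1-CDS libraries stood apart. Their biological coefficient of variation was 0.299 with siNT, against 0.049 in experiment 2, and reads that overlapped no annotated gene made up 20.9% to 23.8% of them against 16.9% to 17.3% of the siNT libraries. Their changes also followed the GC content of the transcript: across 10 classes of genes the median log2 change ran from 1.11 in the class of lowest GC to -3.68 in the class of highest GC, against 0.137 to -0.0936 with siMESH1-7002. A fit that removes this trend is therefore given for the enzymes, lists and genes tested with siMESH1-CDS, and the part of GC content in a change was not tested further. Of 8 kidney and clear cell carcinoma markers, 8 reached 1 CPM in both siNT groups and 7 with siMESH1-CDS. Their levels were unequal between groups. NDUFA4L2 was 27.6 CPM with siNT and 0.624 with siMESH1-CDS, KRT18 was 77.3 and 2.76, and CA9 was 30.5 and 3.81. PAX8, PAX2 and KRT8 were also lower, VIM was 3511 and 3486, and CDH6 was higher, 499.9 and 1006.9. In siNT of experiment 2 NDUFA4L2 was 1002 CPM. PTPRC, CD3E and MS4A1, of the 5 leukocyte markers, had at most 3 reads in any group. The summed level of the 5 leukocyte markers, almost all of it from CD68, was 45.2 to 62.5 CPM with siNT, 1.17 to 7.45 CPM with siMESH1-CDS, and 105 to 107 and 136 to 146 CPM in experiment 2. None of 4 endothelial and 4 fibroblast markers reached 1 CPM.

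Of the 9 enzyme transcripts with enough reads to test, 6 passed an adjusted p of 0.05 with siMESH1-CDS. CTH, PSPH and PSAT1 rose and SHMT2, CBS and SHMT1 fell, while MTHFD2, ASNS and ALDH18A1 did not pass. Over all 13395 genes tested, 74.1% passed, 36.9% as higher and 37.2% as lower, so these counts are near the background. The GC-corrected fit also called 3 higher and 3 lower, but CTH, PSPH and CBS higher and PSAT1, SHMT2 and MTHFD2 lower. Over the same 13395 genes that fit called 4697 higher and 4157 lower. With siMESH1-7002, CTH rose and CBS, ASNS, PSAT1, MTHFD2, SHMT2, PSPH and SHMT1 fell, and ALDH18A1 did not pass. There 8 of 9 passed, 1 as higher and 7 as lower, against 53.3% of 13568 genes, 26.6% as higher and 26.7% as lower. CTH was the 1 enzyme transcript called higher with both siRNAs. The median log2 change of the 9 was -0.045 with siMESH1-CDS and -0.20 with siMESH1-7002, beside -0.047 and 0.0053 over all genes tested.

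**Figure D1:**
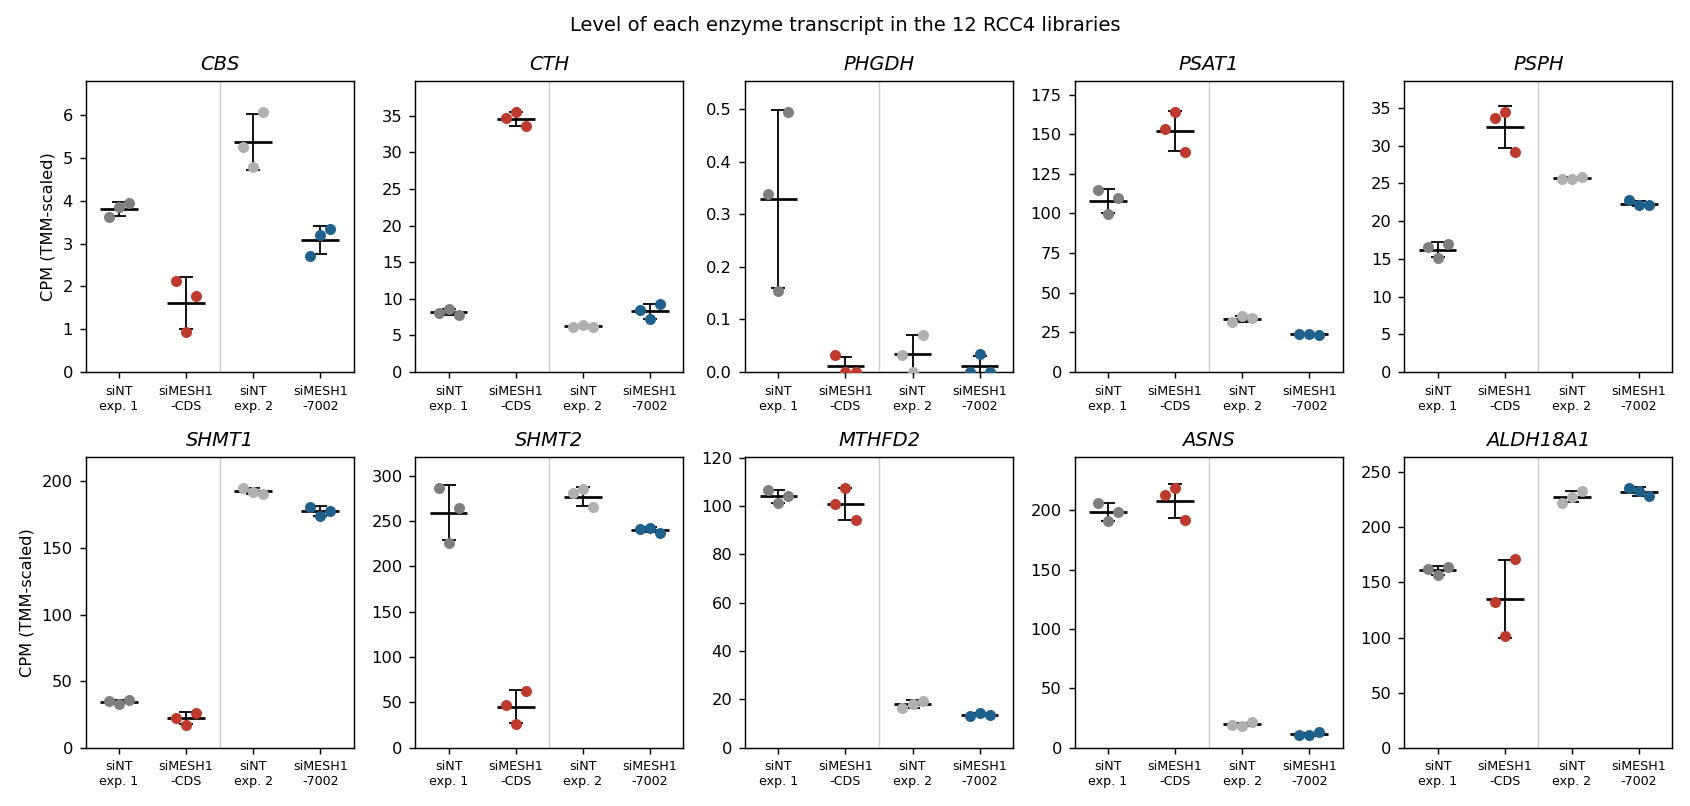
Level of each of the 10 transcripts in the 12 RCC4 libraries, in TMM-scaled CPM on linear axes that start at 0, with 1 point for each library. Horizontal lines are means and bars are SD of 3 libraries. CTH stands between 33.6 and 35.5 CPM in the siMESH1-CDS libraries and between 7.84 and 8.61 in their siNT libraries, and ASNS, MTHFD2 and PSAT1 are higher in siNT of experiment 1 than of experiment 2.

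CTH, on chr1:70411218-70439851 (GRCh38, plus strand), had 8.02, 8.61 and 7.84 CPM with siNT and 34.7, 35.5 and 33.6 CPM with siMESH1-CDS. All 3 siMESH1-CDS libraries were far above the siNT libraries and close to each other, 34.6 ± 0.954 against 8.16 ± 0.403 CPM (SD, n = 3 each). The log2 change was 2.08 (SE 0.13, adjusted p 0.00023), 4.24 times the siNT mean. It was 2.06 between the libraries of lane 4 and 2.14 between those of lane 6, and 1.41 (SE 0.097, adjusted p 8.29e-05) in the GC-corrected fit, CTH having 43.3% GC in a class whose median change was 0.646. With siMESH1-7002 CTH was 8.53, 7.23 and 9.24 CPM, against 6.12, 6.47 and 6.10 CPM with siNT. The groups again did not overlap, but the rise was smaller, 0.42 on the log2 scale (SE 0.11, adjusted p 0.00304). CTH kept its rise and its call in every alternative fit of both comparisons.

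CBS, on chr21:43053191-43076943 (minus strand), was the least abundant tested enzyme, with 3.63, 3.85 and 3.95 CPM in siNT and 2.12, 0.936 and 1.78 CPM with siMESH1-CDS. All siMESH1-CDS libraries were below siNT and varied among themselves, and the log2 change was -1.24 (SE 0.32, adjusted p 0.0141). Within lane 4 the difference was -1.0 and within lane 6 it was -0.88. This fall turned to a rise of 1.51 (SE 0.33, adjusted p 0.00753) in the GC-corrected fit. CBS has 59.6% GC, and genes of its class had a median change of -2.56. The call was lost with lane as a covariate (-0.96, adjusted p 0.0535) and without siNT replicate 3 (-1.22, adjusted p 0.0512), with changes of similar size. Lane 5 held only siNT replicate 2 and lane 7 only siMESH1-CDS replicate 2. A fit with lane as a covariate, here and below, therefore compares only the libraries of lanes 4 and 6. With siMESH1-7002, CBS was 2.70, 3.21 and 3.33 CPM against 5.26, 4.78 and 6.07 CPM with siNT, again without overlap. This fall of 0.80 (SE 0.13, adjusted p 7.24e-05) stayed at -0.74 (SE 0.14) after GC correction. The opposite moves of the genes for the 2 steps of transsulfuration therefore held on both scales only with siMESH1-7002. CBS has a near-identical copy, CBSL, annotated in GRCh38, whereas the counts were made on hg19. Whether reads of CBS were shared with a copy in counting was not tested.

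PHGDH, the first enzyme of serine synthesis, on chr1:119648411-119744226 (plus strand), was close to undetected in RCC4 cells. It had 18, 7 and 23 reads in the siNT libraries of experiment 1 and 1, 0 and 0 reads with siMESH1-CDS. Pooled, 1 read against 48 gives a ratio of 0.0239 per read in genes, with an exact 95% interval of 0.000592 to 0.139 that covers counting error only. In experiment 2 it had 1, 0 and 2 reads with siNT and 0, 1 and 0 with siMESH1-7002, at most 3 reads in either group, so no ratio is given. PHGDH did not pass the filter on low counts in either experiment. Without that filter it was called lower with siMESH1-CDS (adjusted p 0.00694) and not with siMESH1-7002 (adjusted p 0.52). Its transcript has 58.3% GC, in the range where genes fell with siMESH1-CDS.

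PSAT1, the aminotransferase of the pathway, on chr9:78297143-78330093 (plus strand), was 115, 99.6 and 109.6 CPM with siNT and 153, 164 and 139 CPM with siMESH1-CDS. All siMESH1-CDS libraries were higher, and the log2 change was 0.49 (SE 0.10, adjusted p 0.00589). It was 0.28 within lane 4 and 0.48 within lane 6, and it missed the threshold with lane as a covariate (0.38, adjusted p 0.0635). After GC correction PSAT1 was lower instead, by -0.27 (SE 0.076, adjusted p 0.019), and genes of its class (42.3% GC) had a median change of 0.838 in the uncorrected fit. With siMESH1-7002 it was 23.9, 24.1 and 23.5 CPM against 31.4, 35.1 and 33.9 CPM with siNT. That fall of 0.49 (SE 0.064, adjusted p 7.06e-06) was present in all 3 libraries.

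PSPH, the phosphatase that releases serine, on chr7:56011051-56051604 (minus strand), was 16.6, 15.1 and 16.9 CPM with siNT and 33.7, 34.4 and 29.2 CPM with siMESH1-CDS. The siMESH1-CDS level was 2.00 times that of siNT with no overlap, a log2 change of 1.00 (SE 0.13, adjusted p 0.00127). The rise was 0.81 within lane 4, 0.99 within lane 6 and 1.26 after GC correction (SE 0.18, adjusted p 0.00135), in a class of genes whose median change was -0.0756. PSPH thus rose in both fits of experiment 1. With siMESH1-7002 it was 22.7, 22.2 and 22.1 CPM against 25.6, 25.6 and 25.9 CPM with siNT, slightly lower in every library. This log2 change of -0.20 (SE 0.062, adjusted p 0.0113) was not called in the single model of 4 groups (adjusted p 0.133). PSPH has an annotated pseudogene copy. Whether reads of PSPH were shared with it in counting was not tested, so its level is uncertain.

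SHMT2, the mitochondrial serine hydroxymethyltransferase, on chr12:57229327-57234935 (plus strand), showed the largest fall of the 9 with siMESH1-CDS, but not with siMESH1-7002, where CBS, ASNS, PSAT1 and MTHFD2 had larger changes. It was 287, 226 and 264 CPM with siNT and 47.5, 25.9 and 62.8 CPM with siMESH1-CDS, 17.5% of the siNT mean. The log2 change was -2.51 (SE 0.33, adjusted p 0.0012), with -2.19 within lane 4 and -2.48 within lane 6. It was smaller but still called after GC correction, at -1.07 (SE 0.082, adjusted p 0.000123), where genes of its GC class (55.2% GC) had a median change of -1.64 in the uncorrected fit. With siMESH1-7002 it was 241, 243 and 237 CPM against 281, 285 and 265 CPM with siNT. The fall there was 0.20 (SE 0.043, adjusted p 0.000756), without overlap, and it was not called in the single model of 4 groups (adjusted p 0.667).

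SHMT1, the cytosolic form, on chr17:18327860-18363563 (minus strand), was 35, 33.2 and 35.6 CPM with siNT and 22.5, 17.4 and 26.4 CPM with siMESH1-CDS. All siMESH1-CDS libraries were lower, by -0.65 (SE 0.18, adjusted p 0.0174), with -0.41 within lane 4 and -0.66 within lane 6. The GC-corrected change was -0.068 (SE 0.078, adjusted p 0.465). The call was also lost without siMESH1-CDS replicate 1 (adjusted p 0.058), siNT replicate 1 (0.0582) or siNT replicate 3 (0.062), and with lane as a covariate (0.0686). With siMESH1-7002, SHMT1 was 181, 174 and 177 CPM against 195, 192 and 191 CPM with siNT. This small difference of -0.12 (SE 0.043, adjusted p 0.0265) was lost on leaving out any siMESH1-7002 library or siNT replicate 1 or 2 (adjusted p 0.0537 to 0.135), without the filter on low counts (0.0524) and in the single model of 4 groups (adjusted p 0.595).

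MTHFD2, the mitochondrial folate dehydrogenase next to SHMT2, on chr2:74198562-74217565 (plus strand), was 107, 101 and 104 CPM with siNT and 101, 108 and 94.2 CPM with siMESH1-CDS. These groups overlapped and the log2 difference was -0.045 (SE 0.087, adjusted p 0.652), -0.18 within lane 4 and -0.048 within lane 6. In the GC-corrected fit it was lower, by -0.88 (SE 0.073, adjusted p 0.000163), and genes of its class (41.4% GC) had a median change of 0.838 in the uncorrected fit. It was also called lower in the single model of 4 groups (adjusted p 0.0463) and with library size scaling (-0.31, adjusted p 0.00583). With siMESH1-7002, MTHFD2 was 13.3, 14.3 and 13.5 CPM against 16.3, 18.1 and 19.5 CPM with siNT. It was lower in every library, by -0.39 (SE 0.081, adjusted p 0.000688).

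ASNS, the amidotransferase that makes asparagine, on chr7:97852118-97872542 (minus strand), was 206, 191 and 199 CPM with siNT and 213, 219 and 192 CPM with siMESH1-CDS. The groups overlapped, and the log2 difference of 0.066 (SE 0.087) did not pass (adjusted p 0.506). It was -0.10 within lane 4 and 0.10 within lane 6, and -0.14 after GC correction (SE 0.084, adjusted p 0.171). Scaling by library size alone gave -0.20 (adjusted p 0.03) and limma voom with sample weights gave 0.093 (adjusted p 0.0277), so its direction with siMESH1-CDS depends on the scaling. With siMESH1-7002 it was 10.6, 10.5 and 12.8 CPM against 18.8, 18.6 and 21.5 CPM with siNT. ASNS fell to 57.8% of siNT there, by 0.79 on the log2 scale (SE 0.091, adjusted p 1.59e-06), close to the fall of CBS.

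ALDH18A1, which makes the first intermediate of proline from glutamate, on chr10:95605929-95656706 (minus strand), was 163, 156 and 164 CPM with siNT and 132, 101 and 172 CPM with siMESH1-CDS. The siMESH1-CDS libraries were spread around the siNT range, and the log2 difference was -0.25 (SE 0.19, adjusted p 0.268), 0.078 within lane 4, -0.31 within lane 6 and -0.12 after GC correction (adjusted p 0.325). Without siMESH1-CDS replicate 3 it was called lower, at -0.48 (adjusted p 0.0158), as it was in the single model of 4 groups (adjusted p 0.0263) and with limma voom and sample weights (adjusted p 7.92e-05). With siMESH1-7002 it was 236, 233 and 228 CPM against 223, 228 and 233 CPM with siNT, a difference of 0.030 (SE 0.042, adjusted p 0.578) between groups that overlapped.

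An exact permutation test of 3 against 3 libraries cannot go below 0.1 (two-sided), and it gave 0.1 for every enzyme transcript whose groups did not overlap. Of the 9 tested, 3 lay wholly above and 3 wholly below siNT with siMESH1-CDS, where 40.2% and 42.5% of all genes did so. With siMESH1-7002, 1 lay wholly above and 7 wholly below, where 29.6% and 29.9% of all genes did so.

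**Figure D2:**
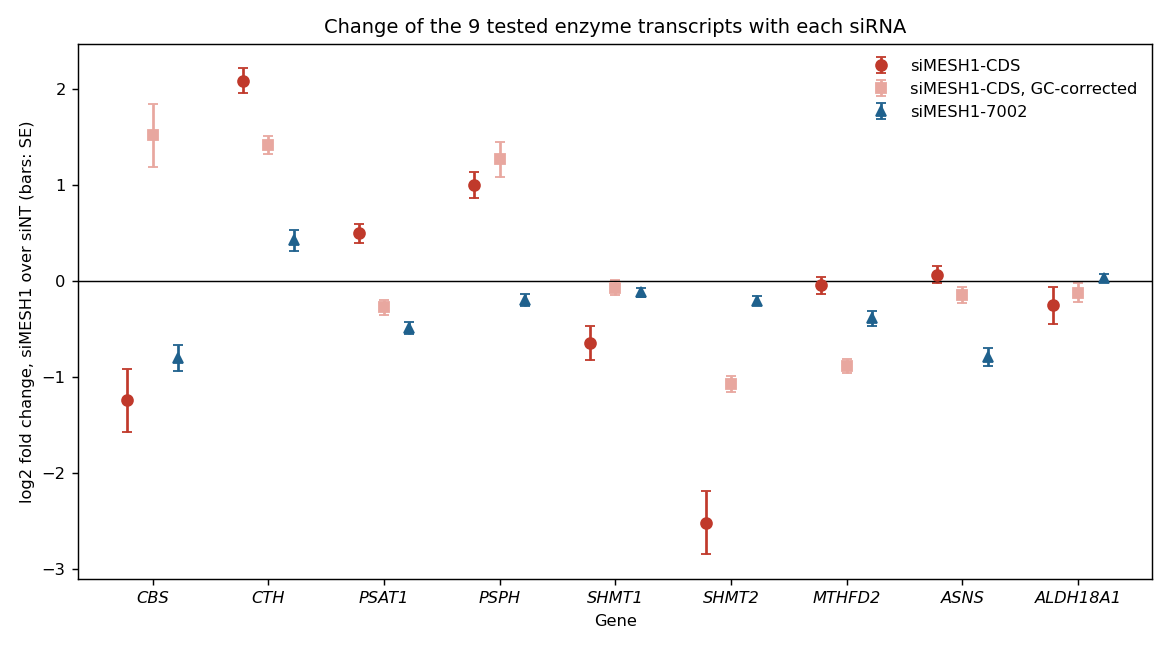
Log2 fold change over siNT of the 9 tested transcripts (vertical axis, bars are SE of the fit) with siMESH1-CDS, with siMESH1-CDS after GC correction and with siMESH1-7002. CTH is above 0 in all 3 series (2.08, 1.41 and 0.42) and SHMT2 below 0 in all 3 (-2.51, -1.07 and -0.20), whereas with the GC correction CBS and PSAT1 change side, as does ASNS (0.066 to -0.14, called in neither).

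The difference between the 2 changes was tested directly in 1 model of all 12 libraries, siMESH1-CDS minus siMESH1-7002, each against its own siNT. It passed for 6 of the 9 enzyme transcripts, against 69.7% of 14154 genes, and the median difference over all genes was -0.243. That model scales all 12 libraries together, so its differences are not exactly the separate changes subtracted and are read against this median. CTH (1.51, SE 0.14, adjusted p 1.22e-05), PSPH (1.05, SE 0.12), PSAT1 (0.83, SE 0.12) and ASNS (0.71, SE 0.14, adjusted p 0.0013) were higher with siMESH1-CDS relative to siMESH1-7002. SHMT2 (-2.46, SE 0.35, adjusted p 0.000156) and SHMT1 (-0.68, SE 0.18, adjusted p 0.006) were lower. CBS, MTHFD2 and ALDH18A1 did not pass (adjusted p 0.121, 0.176 and 0.0906). CBS passed without siMESH1-CDS replicate 1 (-0.78, adjusted p 0.0471), and without siMESH1-CDS replicate 3 MTHFD2 (0.31, adjusted p 0.0299) and ALDH18A1 (-0.58, adjusted p 0.00187) passed. MTHFD2 also passed with DESeq2 (0.32, adjusted p 0.0328). With limma voom and sample weights both MTHFD2 (0.16, adjusted p 0.0469) and ALDH18A1 (-0.49, adjusted p 2.97e-08) passed. After GC correction, with a median of -0.0117 over all genes, the differences of CTH (1.02), PSPH (1.45), ASNS (0.65), PSAT1 (0.25, adjusted p 0.0383) and SHMT2 (-0.94) still passed, PSAT1 and SHMT2 with much smaller values. The difference of SHMT1 was then 0.016 (adjusted p 0.827), that of CBS was 2.03 (adjusted p 0.00039) and that of MTHFD2 was -0.44 (adjusted p 0.00201). siRNA and experiment cannot be told apart in this test, because each siRNA was used in 1 experiment only.

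**Figure D3:**
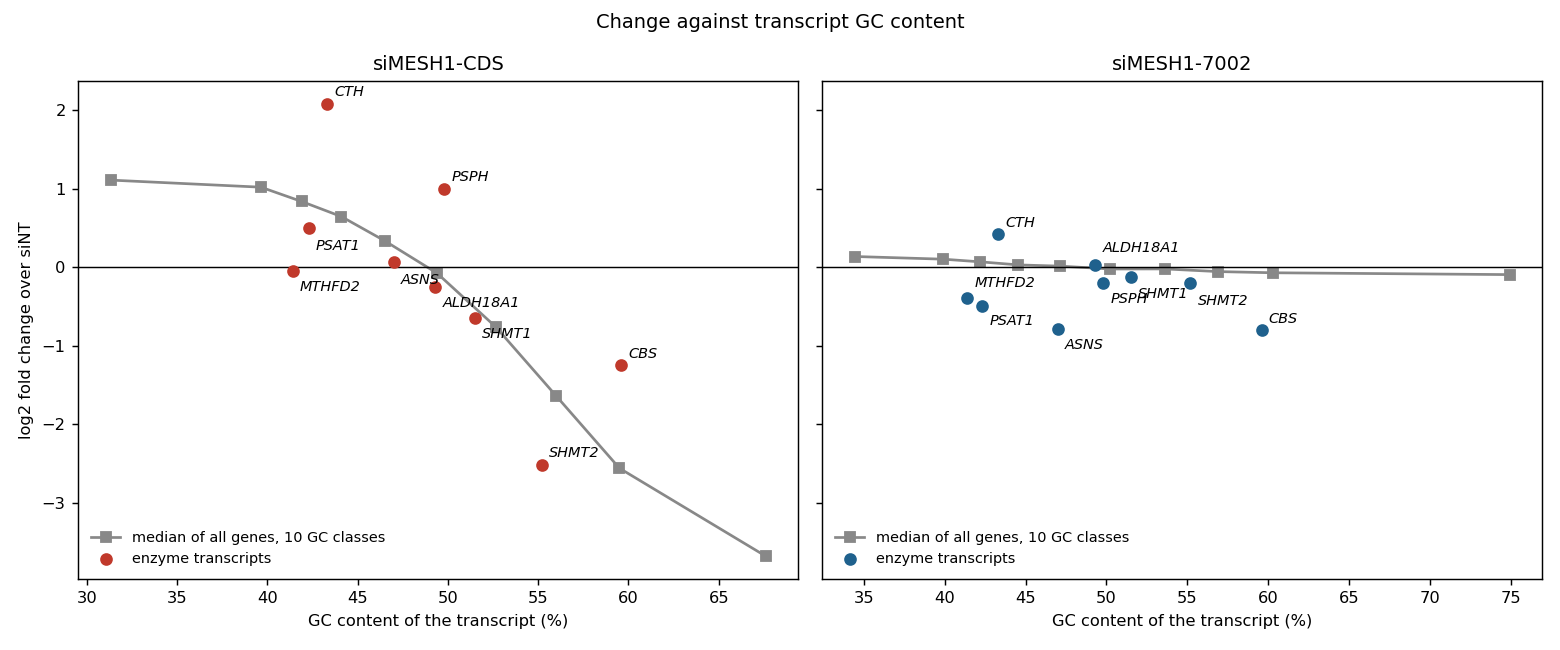
Log2 fold change over siNT (vertical axis) against the GC content of the transcript in percent (horizontal axis) for the 9 tested transcripts, with the median of all genes in 10 GC classes as squares at the middle of each class. With siMESH1-CDS the class medians descend from 1.11 to -3.68 and CTH, PSPH and CBS lie above the line of class medians, and with siMESH1-7002 the medians stay between 0.137 and -0.0936.

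The enzymes also differed in level before any knockdown. Per kilobase of the longest coding transcript, SHMT2 led in siNT of experiment 1 with 102 ± 12 CPM per kilobase (SD, n = 3), followed by ASNS (84.3), PSAT1 (49.3), ALDH18A1 (47.9), MTHFD2 (23.4), SHMT1 (14), PSPH (7.44), CTH (3.99), CBS (1.46) and PHGDH (0.127). PSAT1 and ALDH18A1 overlapped in that order and the other neighbours did not. In siNT of experiment 2 the order was SHMT2 (109.2), SHMT1 (78.2), ALDH18A1 (67.8), PSAT1 (15.3), PSPH (11.8), ASNS (8.32), MTHFD2 (4.03), CTH (3.05), CBS (2.06) and PHGDH (0.0132), and no neighbours overlapped. With the mean length of coding transcripts instead, PSPH moved ahead of PSAT1 in experiment 2 and the order in experiment 1 was the same, but the levels rose unequally, for SHMT2 from 102 to 220.2, for ASNS from 84.3 to 148 and for PSPH from 7.44 to 15.5 in experiment 1, so the values depend on the length used. Both genes of transsulfuration were thus among the 3 lowest per kilobase in both experiments.

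The same siNT treatment gave unequal levels in the 2 experiments. The mean siNT level of ASNS was 199 CPM in experiment 1 and 19.6 CPM in experiment 2, 10.1 times apart. MTHFD2 was 104 and 18 CPM and PSAT1 108 and 33.5 CPM, whereas SHMT1 was 34.6 and 193 CPM, in the opposite order. SHMT2 was 259 and 277 CPM, nearly equal. Over 4-fold gaps were present for 3 of 9 enzyme transcripts and for 14.3% of 12824 genes tested in both experiments. ASNS and MTHFD2 were thus measured with each siRNA from very different starting levels. Low alignment quality took out 7.03% to 8.60% of reads in experiment 1 and 0 in experiment 2, so the counting may have differed too, and lane, date and handling cannot be told apart from experiment.

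**Figure D4:**
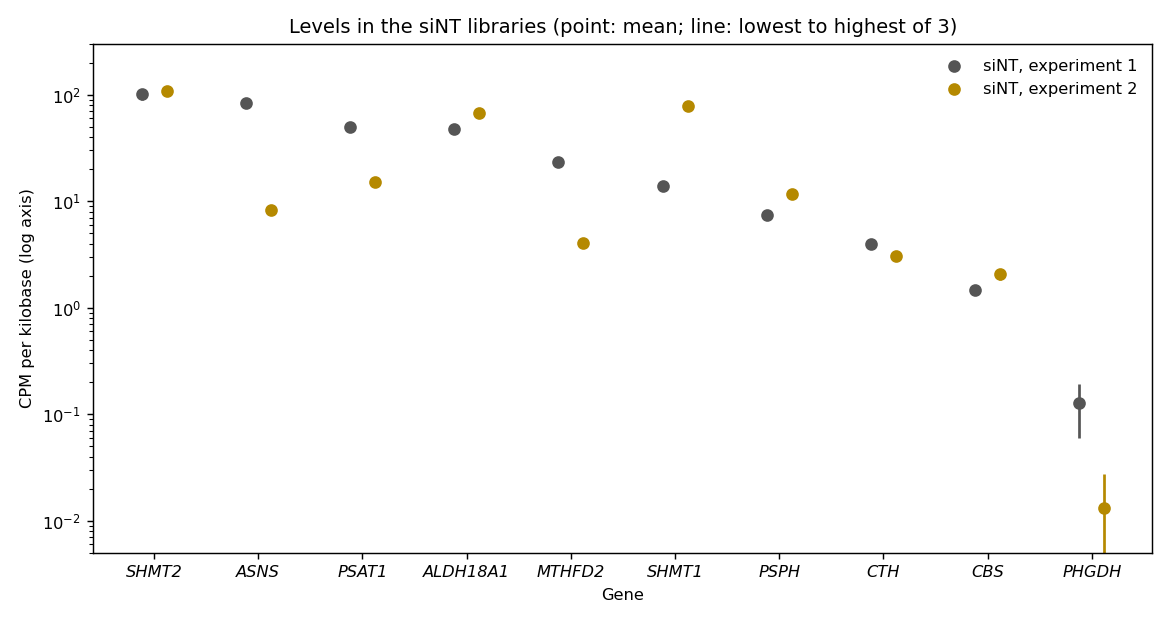
Level of the 10 transcripts in the siNT libraries in CPM per kilobase of the longest coding transcript, on a log axis, for experiment 1 and experiment 2. Points are means and lines run from the lowest to the highest of 3 libraries (1 siNT library of experiment 2 had no PHGDH read, and its line is cut at the axis). ASNS stands at 84.3 in experiment 1 and 8.32 in experiment 2, and SHMT1 at 14 and 78.2.

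The likeness of patterns was measured as the root mean square difference of log2 CPM (with 0.05 CPM added) over the 12 libraries, each library relative to the siNT mean of its experiment. Among the other 8 tested enzyme transcripts, ASNS was nearest to MTHFD2 (0.227) and to PSAT1 (0.279), and MTHFD2 was nearest to ASNS. SHMT1 and ALDH18A1 were nearest to each other. SHMT2 and CTH were farthest from the others, with CBS nearest to SHMT2 at 0.742 and PSPH nearest to CTH at 0.630. Among 12823 genes tested in both experiments, the nearest to CTH were INTU (0.0985), SLC17A5 (0.113) and FBXO32 (0.115), and the nearest to ASNS were NUP43 (0.0945), DICER1 (0.102) and ANKRD40 (0.105). These distances use CPM without GC correction and are descriptions without a test. After GC correction CBS and SHMT2 changed in opposite directions with siMESH1-CDS (1.515 and -1.071), and MTHFD2 (-0.88) fell more than ASNS (-0.14).

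Lists of neighbouring pathways were examined by their counts, to be read against the all-gene shares of 36.9% higher and 37.2% lower with siMESH1-CDS and 26.6% and 26.7% with siMESH1-7002. Counts after GC correction with siMESH1-CDS are to be read against the 4697 higher and 4157 lower of 13395 genes in that fit. Of the methionine cycle and sulfur genes, which supply homocysteine to CBS and dispose of sulfur, 7 rose and 4 fell of 15 tested with siMESH1-CDS, and 8 rose and 5 fell of 14 with siMESH1-7002. Their median log2 change was 0.00061 and 0.139, beside -0.047 and 0.0053 over all genes. After GC correction 6 rose and 4 fell with siMESH1-CDS (median 0.35, beside 0.032 over all genes). Those that fell with siMESH1-CDS were 2 without siMESH1-CDS replicate 1, and those that rose with siMESH1-7002 were 5 without siMESH1-7002 replicate 3 or siNT replicate 2. The first ranged from 2 to 6 on leaving out a library and from 3 to 8 in the other fits. The second ranged from 5 to 8 and from 3 to 9. AHCY, which releases homocysteine, was 278 ± 16.9 CPM with siNT and 137 ± 12.5 CPM with siMESH1-CDS (-1.02, SE 0.10, adjusted p 0.000542), and 289 ± 8.56 and 175 ± 3.35 CPM in experiment 2 (-0.72, SE 0.043, adjusted p 4.8e-10). AHCY fell with both siRNAs, but with siMESH1-CDS it turned to 0.88 after GC correction (adjusted p 0.0363). TST, a mitochondrial sulfurtransferase, changed by -2.88 (SE 0.55) and -0.59 (SE 0.069), and by 0.69 with siMESH1-CDS after GC correction (adjusted p 0.0504). MAT2B, a regulatory subunit of methionine adenosyltransferase, changed by 0.82 and -0.28, the first being -0.24 after GC correction (adjusted p 0.0221). In the single model of 4 groups the siMESH1-7002 changes of TST (adjusted p 0.275) and MAT2B (adjusted p 0.0686) were not called. AHCYL2 rose by 0.48 and 0.41, the first being 0.15 after GC correction (adjusted p 0.17).

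Of the folate and glycine one-carbon genes, 4 rose and 12 fell of 22 tested with siMESH1-CDS (median -1.20), and 3 rose and 11 fell of 24 with siMESH1-7002 (median -0.24). The all-gene medians were -0.047 and 0.0053, and after GC correction 3 rose and 11 fell with siMESH1-CDS (median -0.54, beside 0.032 over all genes). TYMS, which makes thymidylate, changed by -1.43 (SE 0.081) and -0.68 (SE 0.056), and MTHFD1, the cytosolic folate enzyme, by -1.04 (SE 0.11) and -0.31 (SE 0.047). Both fell with both siRNAs, and with siMESH1-CDS they remained lower after GC correction (-1.17 and -1.18). SFXN1, the mitochondrial serine transporter, fell from 158 ± 3.84 to 25.6 ± 2.04 CPM with siMESH1-CDS (-2.62, SE 0.099) and rose from 74.7 ± 1.56 to 117 ± 4.63 CPM with siMESH1-7002 (0.65, SE 0.050). Its GC-corrected change with siMESH1-CDS was -3.20 (adjusted p 5.17e-06).

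Of the proline, glutamate and aspartate genes, 3 rose and 12 fell of 20 with siMESH1-CDS (median -1.39), and 4 rose and 11 fell of 22 with siMESH1-7002 (median -0.21). The all-gene medians were again -0.047 and 0.0053, and after GC correction 2 rose and 8 fell with siMESH1-CDS (median -0.46, beside 0.032 over all genes). GLUD1, glutamate dehydrogenase, moved apart with the 2 siRNAs, from 240.4 ± 6.49 to 412 ± 10.4 CPM (0.78, SE 0.074) and from 330.1 ± 10.7 to 135 ± 5.61 CPM (-1.28, SE 0.047). GLUL, glutamine synthetase, rose by 0.74 (SE 0.096) and 0.30 (SE 0.043). NIT2, an omega-amidase, changed by -1.14 (SE 0.082) and -0.57 (SE 0.051), and PYCRL, which completes proline synthesis, by -6.02 (SE 0.83) and -0.47 (SE 0.077). PYCRL had 0, 0 and 5 reads in the siMESH1-CDS libraries, so the size of its fitted change depends on the prior count. The siMESH1-CDS changes of these 4 kept their direction and call after GC correction (0.48, 0.85, -1.98 and -2.75). In the single model of 4 groups PYCRL was not called with siMESH1-7002 (adjusted p 0.196).

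Of 14 factors of the amino acid response, 5 rose and 5 fell with siMESH1-CDS (median -0.41), and 5 rose and 6 fell with siMESH1-7002 (median -0.041), beside all-gene medians of -0.047 and 0.0053. After GC correction 7 rose and 2 fell with siMESH1-CDS and the median turned to 0.71. Those that fell with siMESH1-CDS were 3 with lane as a covariate or without siMESH1-CDS replicate 1, and 2 without siNT replicate 1 or 3. Their number ranged from 2 to 7 on leaving out a library and from 2 to 8 in the other fits. The ATF4 transcript was 318, 327 and 327 CPM with siNT and 154, 31.9 and 330.5 CPM with siMESH1-CDS. These libraries disagreed widely, and the log2 difference was -0.91 (SE 0.73, adjusted p 0.292), and 0.68 after GC correction (adjusted p 0.189). Without siMESH1-CDS replicate 3 ATF4 was called lower (-1.82, adjusted p 0.0358), as it was with limma voom and sample weights (-1.083, adjusted p 1.17e-05). With siMESH1-7002 it was 256 ± 9.31 against 257 ± 3.45 CPM, a difference of -0.0034 (SE 0.043, adjusted p 0.954). ATF4 is controlled largely at translation, which these counts do not measure. ATF3, a stress-induced partner of ATF4, rose by 1.22 (SE 0.20) and 0.49 (SE 0.089), and NFE2L2 (NRF2), the oxidative stress factor, by 1.62 (SE 0.11) and 0.33 (SE 0.048). EIF2AK4 (GCN2), the sensor of uncharged tRNA, rose by 0.92 (SE 0.082) and 0.19 (SE 0.051), and EIF2AK3 (PERK), the sensor of the endoplasmic reticulum, by 1.08 (SE 0.13) with siMESH1-CDS while it fell by 0.45 (SE 0.065) with siMESH1-7002. With siMESH1-CDS these 4 stayed higher after GC correction (1.64, 1.22, 0.74 and 0.53), and with siMESH1-7002 ATF3 and EIF2AK4 were not called in the single model of 4 groups (adjusted p 0.0719 and 0.104).

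**Figure D5:**
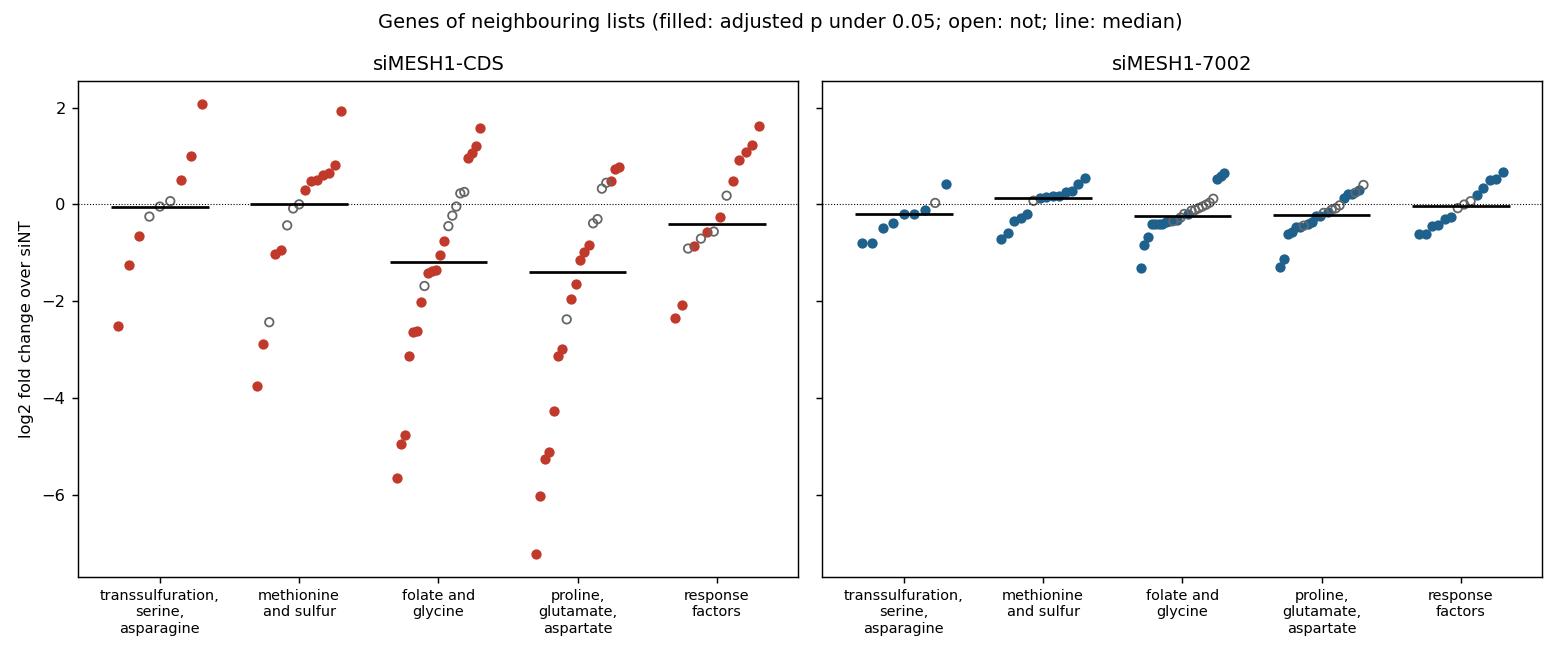
Log2 fold change over siNT (vertical axis) of the tested genes of 5 lists with siMESH1-CDS and with siMESH1-7002. Each point is a gene, filled where the adjusted p was under 0.05 and open where it was not, and lines are medians. With siMESH1-CDS the folate and glycine list has its median at -1.20 and the proline, glutamate and aspartate list at -1.39, and with siMESH1-7002 the medians are -0.24 and -0.21.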

How the data were processed

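The 12 deposited tables give, for each gene, raw counts that the authors made with HTSeq after HISAT2 alignment to hg19 (submitters' notes) from a stranded mRNA kit. Tool versions and the strand setting are not given in the sources used here. The deposited DESeq2 comparison tables hold fold changes and p-values and were not used. Rows naming no gene were left out: reads without a feature were 13.6% to 23.8%.

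Samples were grouped by their labels. Each experiment was fitted on its own with the quasi-likelihood F test of edgeR 4.0.16 (R 4.3.3) after filterByExpr and TMM scaling, with p-values adjusted with Benjamini-Hochberg over all genes tested, at 0.05. The p-values measure only the spread between these samples. Errors are SD of libraries or SE of the fit. Pairs of replicates differed by chi-square 2.29 to 291 per degree of freedom, so none was a repeat. For the GC correction, each library's log2 CPM minus the gene's mean was smoothed against transcript GC content (lowess, span 0.3) and the smooth entered the fit as an offset. GC content was known for 96.5% and 96.6% of genes tested. Lengths, GC content, positions and 3' untranslated regions came from GENCODE release 29 on GRCh38 by symbol (21257 matched by name, 1060 by an older symbol, 1393 not). Within-lane differences and pattern distances added 0.05 CPM. The separate edgeR fits of the 2 comparisons were tested on simulated data without a GC trend. The GC correction, the difference between siRNAs and the other alternatives were not tested in this way.

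Named were the 10 enzymes, HDDC3, ATF4, the nearest genes, and up to 4 genes of each list that passed with both siRNAs at a mean of at least 1 CPM, by the larger adjusted p. A gene that this rule would name is not reported here. The members and lists were chosen with earlier results of these data known. Alternatives were DESeq2 1.42.0, limma 3.58.1 voom with sample weights, library size scaling, no filter, lane or replicate terms, GC correction, 1 model of 4 groups and leaving out each library.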

Additional observations from a re-analysis of the deposited data

Results flagged for a closer look

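Among the enzymes, HDDC3 and the named list genes, the change with siMESH1-CDS differed from that with siMESH1-7002 for 21 genes. The test was the interaction test of edgeR (adjusted p under 0.05). CBS, MTHFD2, ALDH18A1, AHCYL2 and ATF4 did not pass, and PHGDH was not tested. Of all genes tested 69.7% passed. The list genes other than ATF4 were named because they passed with both siRNAs, so the count of 21 is not comparable with that share. Each value is the log2 change with siMESH1-CDS minus that with siMESH1-7002, fitted in 1 model of all 12 libraries where the median of all genes was -0.243, so it is not exactly the separately fitted changes subtracted. Among the enzymes it was 1.51 for CTH, 1.05 for PSPH, 0.83 for PSAT1, 0.71 for ASNS, -0.68 for SHMT1 and -2.46 for SHMT2, and for the targeted HDDC3 it was -2.47. CTH rose with both siRNAs and SHMT2 fell with both, so for these 2 the size differed, whereas PSPH and PSAT1 had opposite signs. After GC correction PSAT1 was lower with both, by -0.27 with siMESH1-CDS and -0.55 with siMESH1-7002. In the methionine and sulfur list it was -0.45 for AHCY, 0.95 for MAT2B and -2.45 for TST. In the folate list it was -3.43 for SFXN1, -0.90 for TYMS and -0.88 for MTHFD1. In the proline, glutamate and aspartate list it was -0.72 for NIT2, 1.91 for GLUD1, 0.29 for GLUL and -5.68 for PYCRL. Among response factors it was 1.14 for NFE2L2, 1.38 for EIF2AK3, 0.58 for ATF3 and 0.57 for EIF2AK4. After GC correction the differences of HDDC3 (-0.59, adjusted p 0.278), MAT2B (0.14, adjusted p 0.241) and SHMT1 (0.016, adjusted p 0.827) no longer passed, and those of AHCY (1.5) and TST (0.72) turned sign. The differences of ATF3 and GLUL missed the threshold with library size scaling (adjusted p 0.131 and 0.242), without the filter on low counts (0.0701 and 0.0848), with the replicate block (0.118 and 0.0953) and on leaving out some single libraries (up to 0.109 and 0.0947). Each siRNA was used in 1 experiment, so siRNA and experiment cannot be told apart.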

How the results depend on the processing

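With siMESH1-CDS the GC correction reversed CBS (1.51), PSAT1 (-0.27), AHCY (0.88), MAT2B (-0.24) and TST (0.69). With the replicate block beside it these were 1.48, -0.27, 0.79, -0.25 and 0.65, and 8 genes of the 3 neighbouring pathway lists were called higher in place of 14. In the difference between siRNAs it turned the sign of AHCY (1.5), CBS (2.03), MTHFD2 (-0.44) and TST (0.72) and left SHMT1 near 0 (0.016). Scaling by library size moved the median of all genes with siMESH1-CDS from -0.047 to -0.31 and reversed ASNS (-0.20). The cause of these changes was not tested.

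With siMESH1-CDS, enzyme transcripts called lower were 3 in the fit reported, 5 in the single model of 4 groups and 5 with library size scaling. They were 1 with lane as a covariate and 1 to 5 on leaving out a library (1 without siNT replicate 3, 5 without siMESH1-CDS replicate 3). Those called higher were 3 without any 1 library. Of all genes, 4981 were called lower in the fit reported and 5611 with library size scaling. On leaving out a library, 4205 to 5256 genes were called higher and 3890 to 5841 lower. The other fits called 4058 to 6006 genes higher and 3716 to 6503 lower. With siMESH1-7002 the single model of 4 groups called 1138 genes higher and 1444 lower in place of 3613 and 3622, 4 enzyme transcripts lower in place of 7, and 6 and 8 genes of the neighbouring lists in place of 15 and 27.

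Same-numbered libraries of siMESH1 and siNT correlated at -0.054, 0.238 and 0.134 in experiment 1 and at -0.068, 0.041 and -0.079 in experiment 2. Not every library correlated best with its own number, but siNT replicates 2 and 3 and siMESH1-CDS replicate 2 of experiment 1 did. So did siNT replicate 2 of experiment 2. With 3 libraries in a group these correlations cannot decide whether the numbers pair them. With the replicate block, 3 and 3 enzyme transcripts were called higher and lower with siMESH1-CDS and 1 and 7 with siMESH1-7002, and 4479 and 4794, and 3461 and 3511, of all genes. It changed no call of the enzymes, and it ended the calls of ATF3 and GLUL in the difference between siRNAs. A call that misses the threshold does not show that a gene kept its level, least of all in experiment 1 with its wide spread.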

Other observations

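Outside the naming rule, 3 genes of the lists were chosen after their values were seen. GGH, which trims folate chains, fell by 1.33 with siMESH1-7002 (SE 0.070, adjusted p 8.64e-11) and changed by -0.045 with siMESH1-CDS (SE 0.13, adjusted p 0.766). GLDC, the decarboxylase of the glycine cleavage system, fell by 1.35 with siMESH1-CDS (SE 0.25, adjusted p 0.00396) and by 0.40 with siMESH1-7002 (SE 0.042, adjusted p 5.4e-07). ASRGL1, which breaks down asparagine, changed by -0.98 (SE 0.22, adjusted p 0.00825) and -1.13 (SE 0.11, adjusted p 3.81e-07). All p-values are from edgeR's quasi-likelihood test, and after GC correction the siMESH1-CDS changes were -0.26 for GGH (adjusted p 0.134), -0.76 for GLDC (adjusted p 0.000486) and -0.14 for ASRGL1 (adjusted p 0.37).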
